A study of Mus musculus with 7 samples.

Results

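Fibro-adipogenic progenitors (FAPs) are fibroblast-like cells that lie between the fibres of skeletal muscle, and 10 genes that mark them were followed here in whole injured muscle. The genes were picked by name as FAP markers, with no threshold on their values: the receptor Pdgfra, the surface proteins Ly6a, Dpp4 and Cd248, the surface or secreted protein Pi16, the secreted proteins Dpt, Smoc2, Clec3b and Mfap5, and the transcription factor Osr1. All 10 were found by symbol among the 48820 genes of the count table, and all 10 passed the filter on low counts. RNA came from the tibialis anterior (TA) muscle of the lower leg, taken from male mice 7 weeks old on day 3 after barium chloride (BaCl2) injury. There were 4 Sirt7 scKO libraries (Sirt7fl/fl; Pax7-CreERT2) and 3 Control libraries (WT; Pax7-CreERT2), labelled as biological replicates, so both groups carry the Pax7-CreERT2 allele and both were injured.

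After injury FAPs multiply within days, secrete matrix and factors that act on muscle stem cells, and are then cleared by cell death as inflammation resolves. Where they persist they can turn into matrix-producing fibroblasts or fat cells, which is the source of their name. Single-cell work in mice separates a Pi16- and Dpp4-bearing FAP state, often placed near vessels and fascia, from states rich in matrix genes, while Pdgfra is used to mark FAPs as a whole. Pax7 marks muscle stem cells and not FAPs, so the drug-inducible recombinase of these mice is directed at another lineage, while RNA was taken from the muscle as a whole. The labels give neither the inducing drug nor its timing.

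Total counts were 5425095 to 7553137 in the Sirt7 scKO libraries and 5601699 to 5777563 in the Control libraries. Sirt7 itself, read over the whole gene in whole muscle, had 39.7, 34.15, 47.9 and 52.97 CPM (counts per 1000000 counts of tested genes, with the library's scaling factor) in Sirt7 scKO replicates 1 to 4, against 46.2, 70.6 and 57.3 CPM in Control replicates 1 to 3. The groups overlapped and Sirt7 did not pass the test (log2 fold change -0.42, SE 0.162, edgeR adjusted p = 0.288). Markers of other cells were well represented in this tissue: the summed level of 10 macrophage markers was 10450 to 12710 CPM in Sirt7 scKO and 10680 to 11290 CPM in Control, and that of 14 mature fibre genes was 815 to 4237 CPM in Sirt7 scKO and 2488 to 6487 CPM in Control. The 10 FAP markers together took 0.0648, 0.0594, 0.0608 and 0.0708% of all counts in Sirt7 scKO replicates 1 to 4, against 0.0774, 0.0779 and 0.0801% in Control replicates 1 to 3. Every Sirt7 scKO library held a smaller share than any Control library, which is given as a description with no test. The share weighs abundant markers most. Ly6a, which other cells carry too, had mean levels of 185 CPM in Sirt7 scKO and 252 CPM in Control. For Pdgfra the means were 139 CPM in Sirt7 scKO and 142 CPM in Control. In whole muscle fewer cells of a type and less RNA per cell cannot be told apart.

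The fitted levels of the markers in Sirt7 scKO were graded, from 0.672 times Control for Clec3b to 0.989 times for Osr1. Dpt, Cd248, Ly6a, Mfap5 and Clec3b had 0.672 to 0.802 times the Control level, Pi16 had 0.871 times, Dpp4 had 0.936 times, and Pdgfra, Smoc2 and Osr1 had 0.977 to 0.989 times. None of the 10 passed an adjusted p of 0.05 in edgeR's quasi-likelihood test over all genes, where 0.131% of genes passed, 0.0298% as lower. At an unadjusted p under 0.05 there were 5 markers, all lower, against 6.94% of all genes lower at that level. DESeq2 passed 1 of the 10 (Dpt), where it passed 154 of 16764 genes, 75 of them as lower. Of the markers limma voom passed none, where it passed 23 genes. The groups did not overlap in 2 markers, Dpt and Cd248, both lower, where 5.71% of all genes were lower and 6.51% higher without overlap. All 10 log2 fold changes were negative, as were 48.7% of all genes, and the median was -0.26 over the markers and 0.01 over all 16764 genes tested. Pdgfra, Smoc2, Osr1, Dpp4 and Pi16 turned sign when 1 library or another was left out. The list was chosen with earlier results of these data known, so these counts describe it.

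**Figure D1:**
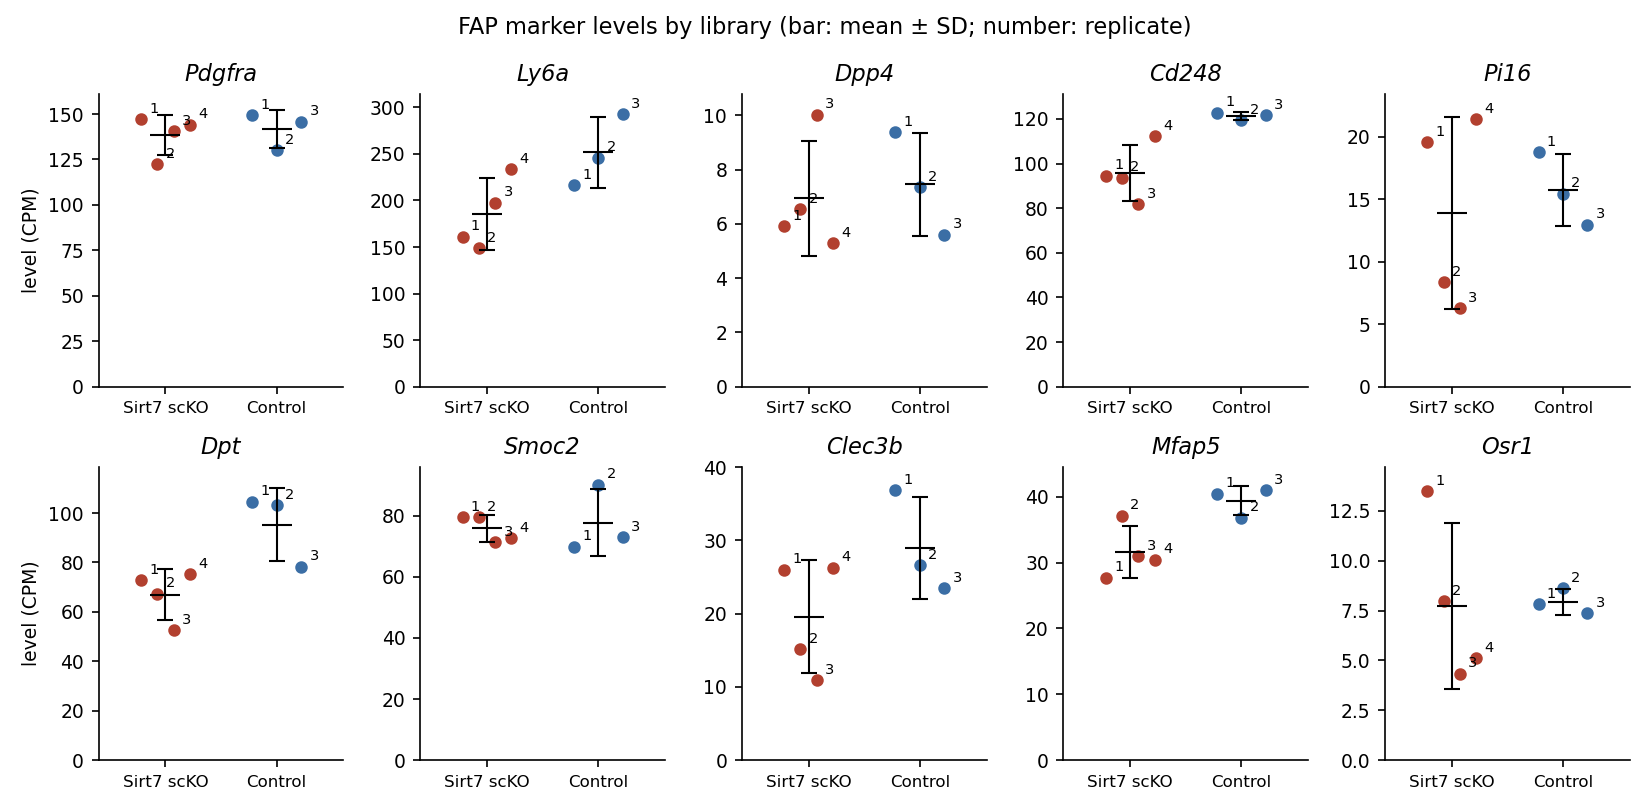
Level of each FAP marker in CPM (vertical axes, each from 0) in the 4 Sirt7 scKO libraries (red, left) and 3 Control libraries (blue, right), with mean and SD as black bars and replicate numbers beside the points. Dpt and Cd248 show no overlap between the groups, Pdgfra and Smoc2 sit level, and Pi16, Clec3b and Osr1 spread widely among the Sirt7 scKO libraries.

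Promoter windows are shown for 3 markers that behaved differently: Dpt, the marker with the smallest p, Pdgfra, which sat level, and Dpp4, the marker with the lowest level per length. They are the 250 bases before the RefSeq start on build GRCm38.p6, read 5′ to 3′ on the strand of the gene, and the table used held windows for 4 of the 10 markers. The windows are chr1:164796413-164796662 on the plus strand for Dpt, chr5:75152001-75152250 on the plus strand for Pdgfra, and chr2:62412232-62412481 on the minus strand for Dpp4. Capitals mark matches to any of 5 motifs searched on both strands: the TATA box (TATAAA), the CCAAT box (CCAAT), the GC box (GGGCGG), the AP-1 site (TGANTCA) and the TEAD site (GGAATG).
Dpt: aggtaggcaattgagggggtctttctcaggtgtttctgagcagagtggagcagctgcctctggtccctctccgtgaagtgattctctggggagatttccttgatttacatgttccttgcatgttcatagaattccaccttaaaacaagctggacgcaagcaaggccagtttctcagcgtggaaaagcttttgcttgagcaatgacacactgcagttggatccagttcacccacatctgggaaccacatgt
Pdgfra: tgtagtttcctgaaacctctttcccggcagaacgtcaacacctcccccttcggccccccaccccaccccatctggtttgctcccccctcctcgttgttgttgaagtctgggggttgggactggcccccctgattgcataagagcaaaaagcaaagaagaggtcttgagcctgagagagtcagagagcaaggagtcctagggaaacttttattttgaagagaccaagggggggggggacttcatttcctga
Dpp4: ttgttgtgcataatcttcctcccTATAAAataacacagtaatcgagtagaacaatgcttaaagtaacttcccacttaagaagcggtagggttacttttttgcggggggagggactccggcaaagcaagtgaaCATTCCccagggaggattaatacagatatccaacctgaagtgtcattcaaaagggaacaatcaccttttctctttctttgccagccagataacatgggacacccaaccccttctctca
The Dpp4 window held 1 TATAAA, starting 227 bases before the start, and 1 GGAATG on the other strand, at 118 bases before it. Over all 32851 promoter windows of this length, TATAAA was found in 12.4% and GGAATG in 12.6%, CCAAT in 33.9%, GGGCGG in 32.7% and TGANTCA in 6.75%. The Dpt and Pdgfra windows held none of these letters, which says nothing about the factors. The share of G and C was 48.8% for Dpt, 54.4% for Pdgfra and 43.6% for Dpp4, against a median of 52.4% over all windows.

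Pdgfra, the receptor tyrosine kinase for platelet-derived growth factors by which FAPs are sorted and traced, did not differ between the groups beyond the spread of libraries. The gene lies on chromosome 5 (75152292 to 75198215, plus strand, GRCm38). Its level was 147, 123, 141 and 144 CPM in Sirt7 scKO replicates 1 to 4, against 149.6, 130.2 and 146 CPM in Control replicates 1 to 3. Replicate 2 was the lowest library of each group and the ranges overlapped. The log2 fold change was -0.03 with a 95% interval of -0.23 to 0.16 (edgeR adjusted p = 0.900). It turned to 0.03 without Sirt7 scKO replicate 2. Antisense transcripts and a microRNA gene lie over 4.55% or less each of its exon length, and reads from them cannot be separated without strand.

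Ly6a, the GPI-anchored surface protein also called Sca-1, had lower values in most Sirt7 scKO libraries. It lies on chromosome 15 (74994877 to 74998031, minus strand), and endothelial and blood-forming cells carry it too. Its level was 161, 148.5, 198 and 234 CPM in Sirt7 scKO replicates 1 to 4, against 216, 246 and 293 CPM in Control replicates 1 to 3. Sirt7 scKO replicate 4 was the only Sirt7 scKO library inside the Control range. The means were 185 ± 38.6 CPM in Sirt7 scKO and 252 ± 38.5 CPM in Control (SD, n = 4 and 3), with a log2 fold change of -0.44 (SE 0.145, edgeR adjusted p = 0.225). Without Sirt7 scKO replicate 4 the edgeR adjusted p of Ly6a was 0.0352, in a fit that passed 330 of 16794 genes. With any other single library left out it was 0.305 to 0.545. Of the distinct 50-base windows of Ly6a transcripts, 19.0% also occur in transcripts of other genes, chiefly Ly6c1 and Ly6i, so its count is uncertain. Its relatives Ly6c1 (69.5 ± 16.8 CPM in Sirt7 scKO and 91.8 ± 5.30 CPM in Control) and Ly6e (918 ± 202 CPM in Sirt7 scKO and 1113 ± 118 CPM in Control) had negative fold changes of their own, -0.41 and -0.28 on the log2 scale, and neither passed the test (edgeR adjusted p = 0.2705 and 0.4345). Of the 11 endothelial markers none passed, and their median was 0.05 on the log2 scale.

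Cd248, the transmembrane glycoprotein endosialin of stromal cells, had its 4 Sirt7 scKO libraries below all 3 Control libraries. The gene lies on chromosome 19 (5068078 to 5070682, plus strand) and has 1 exon, unlike the other 9 markers. Its level was 94.55, 93.7, 81.9 and 112 CPM in Sirt7 scKO replicates 1 to 4, against 122.8, 119.5 and 121.8 CPM in Control replicates 1 to 3. The 3 Control libraries differed by a coefficient of variation of 1.42%, less than the 3.81% that counting alone gives at this depth, while the Sirt7 scKO libraries differed by 13.2%. Its fold change was -0.35 on the log2 scale (SE 0.0988), with a 95% interval of -0.56 to -0.13, and missed the threshold over all genes (edgeR adjusted p = 0.177). Without Sirt7 scKO replicate 4, the highest of its group, the edgeR adjusted p of Cd248 was 0.0202, in a fit that passed 330 of 16794 genes. With any other single library left out it was 0.202 to 0.497. Its relatives Clec14a, Thbd and Cd93 had log2 fold changes of -0.14, -0.09 and 0.04 (edgeR adjusted p from 0.753 to 0.891).

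Dpp4, the surface exopeptidase CD26 that marks early fibroblast progenitors and also some lymphocytes, was the lowest of the markers per length and was measured with few counts. It lies on chromosome 2 (62330073 to 62412231, minus strand). There were 42, 50, 67 and 28 counts in Sirt7 scKO replicates 1 to 4, against 54, 41 and 32 counts in Control replicates 1 to 3. The lowest, 28 counts, has an exact Poisson 95% interval of 18.6 to 40.5 counts, for counting error only. Levels were 5.91, 6.54, 10.03 and 5.30 CPM in Sirt7 scKO against 9.38, 7.37 and 5.61 CPM in Control, with full overlap. Its log2 fold change of -0.10 had a 95% interval of -0.65 to 0.46 (edgeR adjusted p = 0.901), wide enough to hold the values of the lower markers. The related protease genes Fap, Dpp8 and Dpp9 had log2 fold changes of -0.13, 0.13 and -0.04 (edgeR adjusted p from 0.478 to 0.861). The T and NK cell markers Cd3e, Cd3g, Cd8a, Cd2 and Trac were below the filter, with 0 to 11 counts in each library.

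Pi16, a member of the CAP protein family that marks adventitial fibroblast progenitors, differed more within Sirt7 scKO than between the groups. The gene is on chromosome 17 (29317680 to 29330593, plus strand). Its level was 19.6, 8.37, 6.29 and 21.4 CPM in Sirt7 scKO replicates 1 to 4, against 18.8, 15.45 and 12.96 CPM in Control replicates 1 to 3. Sirt7 scKO replicates 1 and 4 lay above every Control library, and replicates 2 and 3 lay below every Control library. The coefficient of variation was 55.2% in Sirt7 scKO, where counting alone gives 10.6%, and 18.5% in Control. On the log2 scale the fold change of -0.20 had a 95% interval of -0.94 to 0.54 (edgeR adjusted p = 0.839). Crispld2, of the same protein family, was 16.1 ± 1.03 CPM in Sirt7 scKO and 13.9 ± 2.68 CPM in Control (edgeR adjusted p = 0.583). The relatives Crisp1, of Pi16, and Clec3a, of Clec3b, were below the filter on low counts and were not tested.

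Dpt, dermatopontin, a small matrix protein that binds decorin and collagen fibrils, had the smallest p of the 10. The gene is on chromosome 1 (164796644 to 164824266, plus strand), and no 50-base window of its transcripts occurs in another gene. Its level was 72.9, 67.4, 52.55 and 75.3 CPM in Sirt7 scKO replicates 1 to 4, against 105, 103 and 78.3 CPM in Control replicates 1 to 3. The groups did not overlap, with Control replicate 3 only just above Sirt7 scKO replicate 4. The means were 67.0 ± 10.2 CPM in Sirt7 scKO and 95.3 ± 14.8 CPM in Control (SD, n = 4 and 3), a log2 fold change of -0.51 (SE 0.132, 95% interval -0.80 to -0.22). It missed the threshold in edgeR (adjusted p = 0.139) and passed it in DESeq2 (adjusted p = 0.0326).

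Clec3b, tetranectin, a secreted protein that binds plasminogen, had the largest fitted difference among the markers and a wide spread. Its position is chromosome 9 (123150946 to 123157432, plus strand). Its level was 26.0, 15.2, 10.9 and 26.3 CPM in Sirt7 scKO replicates 1 to 4, against 36.8, 26.6 and 23.5 CPM in Control replicates 1 to 3. As with Pi16, Sirt7 scKO replicates 1 and 4 were the high libraries of their group and replicates 2 and 3 the low ones, but here the high ones lay inside the Control range. The fit gave a log2 fold change of -0.57 (SE 0.26, 95% interval -1.14 to -0.01, edgeR adjusted p = 0.357).

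Mfap5, a glycoprotein of the fibrillin microfibril, had lower values in 3 of 4 Sirt7 scKO libraries than in any Control library. Its position is chromosome 6 (122505845 to 122529290, plus strand). Its level was 27.7, 37.2, 31.0 and 30.5 CPM in Sirt7 scKO replicates 1 to 4, against 40.5, 36.8 and 41.0 CPM in Control replicates 1 to 3. Sirt7 scKO replicate 2 alone lay above the lowest Control library. Its log2 fold change was -0.32 (SE 0.116, edgeR adjusted p = 0.261). Its relative Mfap2 was 16.2 ± 3.95 CPM in Sirt7 scKO and 20.5 ± 3.01 CPM in Control (log2 fold change -0.35, edgeR adjusted p = 0.419).

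Smoc2, a calcium-binding matricellular protein related to SPARC, sat level like Pdgfra. The gene is on chromosome 17 (14279506 to 14404790, plus strand). Its level was 79.6, 79.55, 71.4 and 72.65 CPM in Sirt7 scKO replicates 1 to 4, against 69.8, 90.2 and 73.05 CPM in Control replicates 1 to 3. The Sirt7 scKO libraries lay wholly within the Control range. With a log2 fold change of -0.03 (95% interval -0.255 to 0.19) it gave an edgeR adjusted p of 0.913. Its relative Smoc1 stood at 5.11 ± 1.41 CPM in Sirt7 scKO and 4.63 ± 0.544 CPM in Control.

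Osr1, a zinc finger transcription factor of embryonic and injury-activated FAPs, had a wide spread in Sirt7 scKO, and its fold change turned on single libraries. It lies on chromosome 12 (9570116 to 9581500, plus strand). Its level was 13.5, 7.98, 4.34 and 5.11 CPM in Sirt7 scKO replicates 1 to 4, against 7.82, 8.62 and 7.36 CPM in Control replicates 1 to 3. Sirt7 scKO replicate 1 lay above every Control library and replicates 3 and 4 below every Control library. Between the groups the log2 fold change of -0.02 had a 95% interval of -0.72 to 0.69 (edgeR adjusted p = 0.989). It was -0.43 without Sirt7 scKO replicate 1 and 0.18 without Sirt7 scKO replicate 3. Its relative Osr2 was 4.49 ± 1.38 CPM in Sirt7 scKO and 5.52 ± 0.288 CPM in Control (edgeR adjusted p = 0.655).

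**Figure D2:**
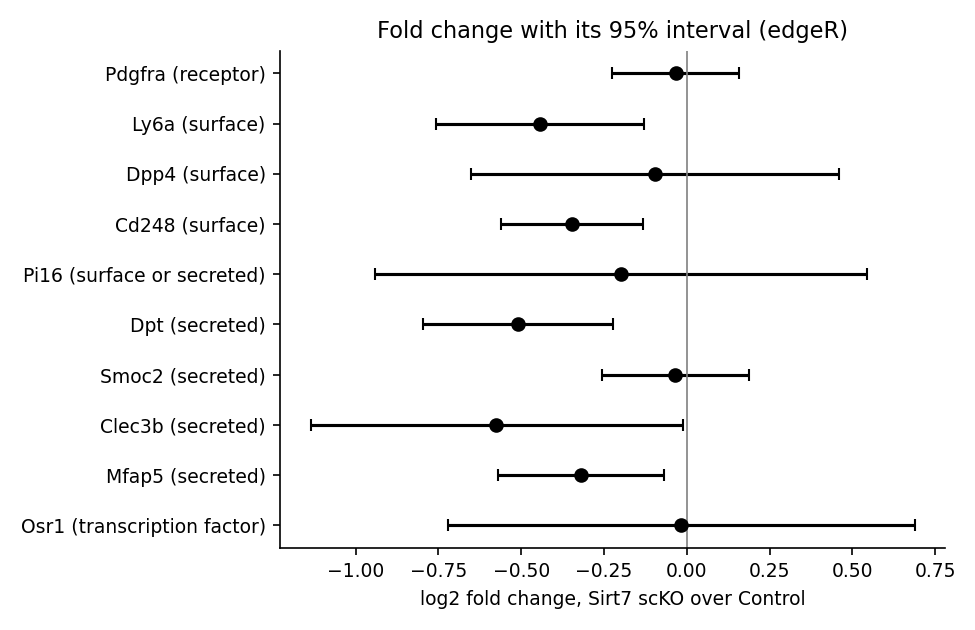
Log2 fold change of each marker, Sirt7 scKO over Control (horizontal axis), with its 95% interval from the edgeR fit, ordered by role. The intervals of Ly6a, Cd248, Dpt, Clec3b and Mfap5 lie below 0 before adjustment over all genes, and those of Pdgfra and Smoc2 are narrow around 0.

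Scaled by exon length, the markers covered a wide range of abundance. Comparison between genes is rough here, since Bowtie2 does not align across introns and the markers have from 1 separate exon stretch (Cd248) to 28 (Dpp4). The length joins the exons of all transcripts, and 19.0% of the 50-base windows of Ly6a are shared with other genes. Ly6a was highest, at 154 ± 32.0 CPM per kb in Sirt7 scKO and 209 ± 31.9 CPM per kb in Control. Its 7 libraries lay above those of every other marker. Dpt followed at 38.9 ± 5.92 CPM per kb in Sirt7 scKO and 55.3 ± 8.56 CPM per kb in Control, then Cd248 at 36.7 ± 4.83 and 46.6 ± 0.65, and Clec3b at 19.8 ± 7.83 and 29.2 ± 7.04, in the same order of groups and unit. Pdgfra, Smoc2 and Mfap5 formed a middle tier, at 13.8 ± 1.103, 10.9 ± 0.632 and 8.80 ± 1.11 CPM per kb in Sirt7 scKO. In Control the same genes stood at 14.2 ± 1.03, 11.2 ± 1.57 and 10.99 ± 0.632 CPM per kb. Osr1 (3.74 ± 2.01 CPM per kb in Sirt7 scKO, 3.84 ± 0.31 in Control), Pi16 (2.18 ± 1.20 in Sirt7 scKO, 2.47 ± 0.457 in Control) and Dpp4 (1.099 ± 0.335 in Sirt7 scKO, 1.18 ± 0.299 in Control) were the lowest. The order of means was the same in both groups. Neighbours in this order overlapped over the 7 libraries except at the step from Ly6a to Dpt and the step from Mfap5 to Osr1.

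**Figure D3:**
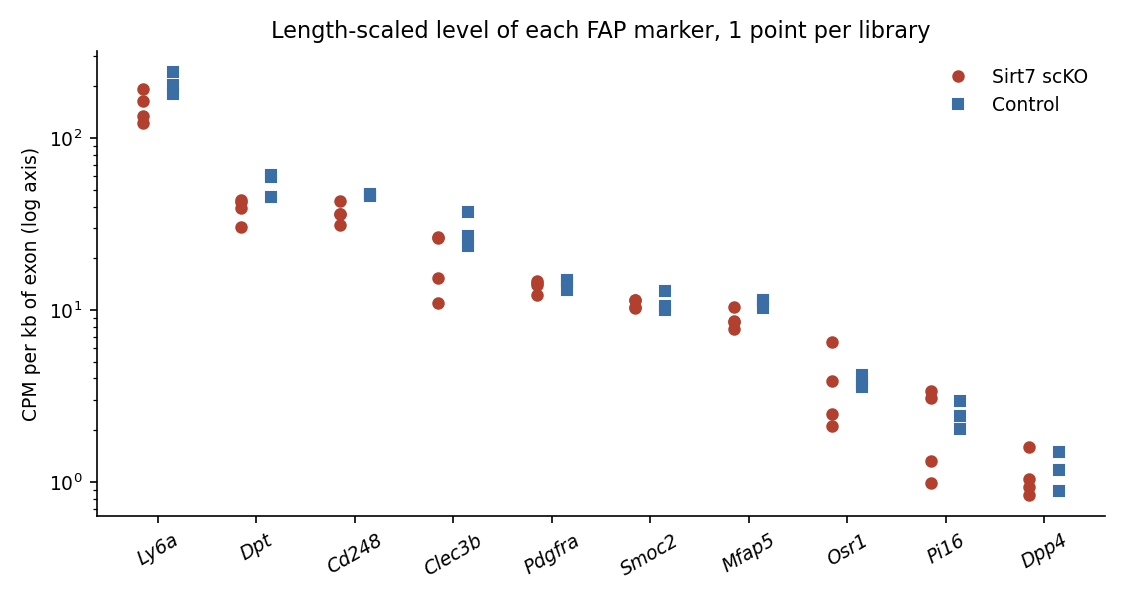
Level per kilobase of exon on a log axis for each marker, with 1 red circle for each Sirt7 scKO library and 1 blue square for each Control library, ordered by the mean over all 7. Ly6a stands above the rest and Osr1, Pi16 and Dpp4 below them in both groups.

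Since Pdgfra sat level, the other markers were also read against it within each library, a ratio that no scaling between libraries affects. For each 100 counts of Pdgfra there were 64.2, 76.4, 58.25 and 77.95 counts of Cd248 in Sirt7 scKO replicates 1 to 4, against 82.1, 91.7 and 83.5 counts in Control replicates 1 to 3. The groups did not overlap in this ratio for Cd248, which was lower, and did for the other 8 markers. Over 16763 genes tested, Pdgfra left out, 2.3% were lower and 5.94% higher without overlap in the same ratio. Dpt stood at 48.5 ± 7.75 counts per 100 of Pdgfra in Sirt7 scKO and 67.6 ± 12.9 in Control, and Ly6a at 133 ± 23.2 in Sirt7 scKO and 178 ± 29.6 in Control. Smoc2 kept nearly the same ratio, 55.0 ± 6.77 in Sirt7 scKO and 55.35 ± 12.1 in Control. These ratios are descriptions and were not tested.

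By library, 9 of the 10 markers lay above their own 7-library mean in Control replicates 1 and 2 and 6 of 10 in Control replicate 3. In Sirt7 scKO replicates 1 to 4 the numbers were 5, 3, 2 and 5. Sirt7 scKO replicate 3 held the lowest value of 5 markers, Cd248, Pi16, Dpt, Clec3b and Osr1, yet the highest of Dpp4. Most markers thus shared Control replicates 1 and 2 as libraries above their mean, but not all were high and low in the same libraries. Pi16 was 0.52 and 0.65 above its mean log2 CPM in Sirt7 scKO replicates 1 and 4 and -0.67 and -1.07 in replicates 2 and 3, while Pdgfra stayed between -0.19 and 0.10 in all 7 libraries.

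**Figure D4:**
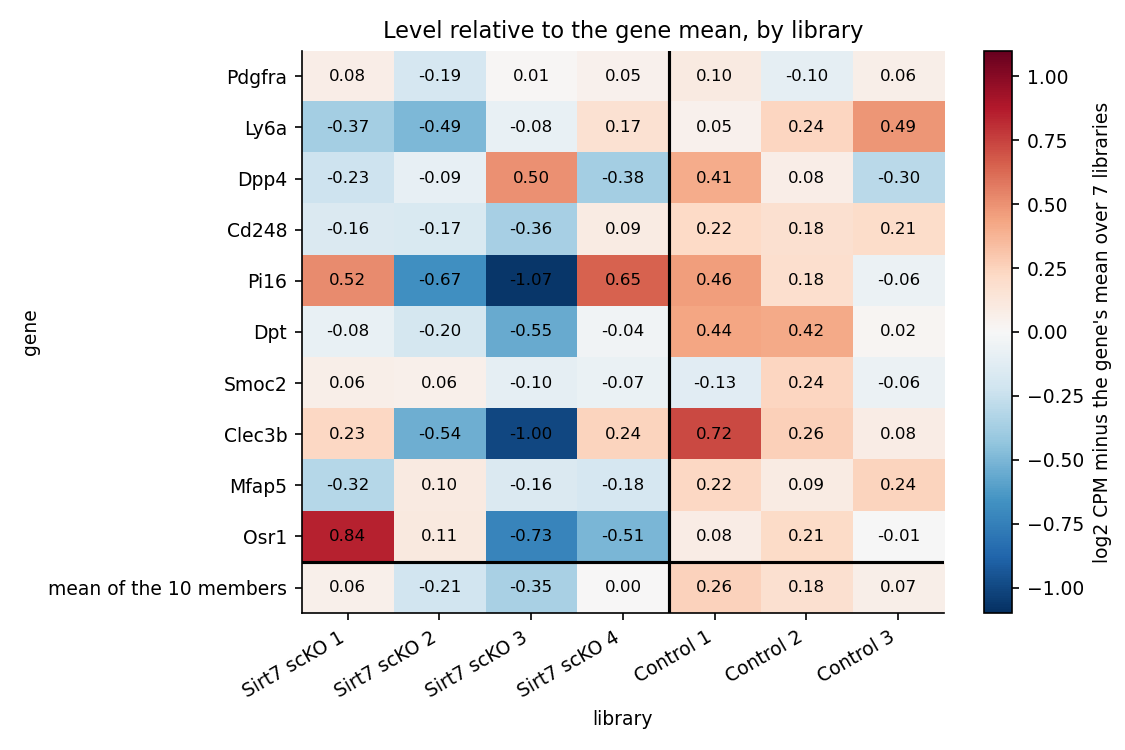
Log2 CPM of each marker (rows) in each library (columns) minus the gene's mean over the 7 libraries, with Sirt7 scKO left of the vertical line and the mean of the 10 markers in the bottom row. Red cells are above and blue cells below the gene's mean. Pi16 and Clec3b both lie above their mean in Sirt7 scKO replicates 1 and 4 and below it in 2 and 3. The highest libraries of Clec3b are Control replicates 1 and 2.

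The 12 other genes found beside Pi16 and Dpp4 in adventitial progenitors had mostly negative values. Their log2 fold changes were below 0 in 10 of 12 cases (median -0.42), where 48.7% of all genes were below 0. None passed an edgeR adjusted p of 0.05, in DESeq2 or in limma voom, and 4 were lower at an unadjusted p under 0.05. Over all genes 6.94% were lower and 6.69% higher at that level, and these shares apply to each list below. With no filter on low counts, edgeR passed 3 of the 12 as lower, Has1, Tnxb and Igfbp6, the last singled out for that result. That fit passed 585 of 28443 genes, 376 of them as lower, and Has1 had 109 counts over all 7 libraries. Has1, a hyaluronan synthase, was 0.985, 2.09, 1.048 and 2.08 CPM in Sirt7 scKO replicates 1 to 4, against 4.52, 3.77 and 3.68 CPM in Control replicates 1 to 3 (log2 fold change -1.36, edgeR adjusted p = 0.130). Tnxb, the matrix glycoprotein tenascin X, was 58.4, 20.9, 20.7 and 35.2 CPM in Sirt7 scKO and 96.25, 58.9 and 43.97 CPM in Control (log2 fold change -0.98, edgeR adjusted p = 0.235). Tnxb was also higher in Sirt7 scKO replicates 1 and 4 than in 2 and 3, as Pi16, Clec3b and the summed tendon markers given below were. Of the fits that left 1 library out, edgeR passed Tnxb only without Sirt7 scKO replicate 1. Control libraries varied in the same genes: Tnxb in Control replicate 3 lay below Sirt7 scKO replicate 1.

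The 18 further FAP and fibroblast genes were evenly divided, 8 positive and 10 negative, and their median was -0.04 on the log2 scale. None passed in edgeR or limma voom, 2 were higher and 2 lower at an unadjusted p under 0.05, and DESeq2 passed Prrx1. Prrx1, a homeobox factor of limb mesenchyme, was 144.6, 133.7, 148.5 and 126.6 CPM in Sirt7 scKO replicates 1 to 4, against 106.7, 103.7 and 112.8 CPM in Control replicates 1 to 3 (log2 fold change 0.36, edgeR adjusted p = 0.116). The groups were apart without overlap, in the opposite direction to Dpt and Cd248. Of the fits that left 1 library out, edgeR passed Prrx1 only without Sirt7 scKO replicate 4. Gli1, a Hedgehog-responsive factor, was 4.02 ± 0.853 CPM in Sirt7 scKO and 6.35 ± 0.618 CPM in Control (log2 fold change -0.67, edgeR adjusted p = 0.253, no overlap). The matrix proteoglycan genes Dcn (372.5 ± 62.6 CPM in Sirt7 scKO, 386 ± 42.4 CPM in Control) and Lum (158 ± 6.7 CPM in Sirt7 scKO, 145 ± 6.89 CPM in Control), singled out after their values were seen, showed no difference past the test.

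In the PDGF pathway, none of 6 genes passed in edgeR, DESeq2 or limma voom, with 1 higher and 1 lower at an unadjusted p under 0.05. The ligand gene Pdgfa was 29.1 ± 1.83 CPM in Sirt7 scKO and 34.6 ± 2.82 CPM in Control (log2 fold change -0.25, edgeR adjusted p = 0.323, no overlap). The second receptor Pdgfrb, which pericytes carry as well as FAPs, was 183, 171, 168 and 146 CPM in Sirt7 scKO replicates 1 to 4, against 134, 137 and 136 CPM in Control replicates 1 to 3 (log2 fold change 0.30, edgeR adjusted p = 0.180). It thus lay above the Control libraries where Pdgfra lay level with them. Of the fits that left 1 library out, edgeR passed Pdgfrb only without Sirt7 scKO replicate 4.

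Of 12 factors that FAPs are known to secrete, 10 passed the filter, 5 with positive and 5 with negative fold changes (median 0.00). None passed in edgeR, 1 was lower at an unadjusted p under 0.05, and that gene, C3, passed as lower in DESeq2 and limma voom. C3, the central complement component, was 58.95, 48.8, 50.75 and 74.2 CPM in Sirt7 scKO replicates 1 to 4, against 102.5, 88.4 and 93.2 CPM in Control replicates 1 to 3 (log2 fold change -0.71, SE 0.13, edgeR adjusted p = 0.0561). The groups were well apart, the highest Sirt7 scKO library lying below the lowest Control library. C3 also passed in edgeR without Sirt7 scKO replicate 1 and without replicate 4, in fits that passed 184 and 330 genes. It did not pass with any other single library left out. Igf1, a growth factor for muscle, was 169 ± 28.2 CPM in Sirt7 scKO and 144.8 ± 1.63 CPM in Control (edgeR adjusted p = 0.414).

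Gene lists of the fates that FAPs can take gave different pictures. They were read in whole muscle, where the RNA of these genes cannot be assigned to FAPs. Of 15 genes of fibrogenic activation, 8 were positive and 7 negative (median 0.03), and none passed in edgeR, DESeq2 or limma voom or at an unadjusted p under 0.05. The metalloprotease gene Adam12, which marks an activated FAP state, was 86.3 ± 4.83 CPM in Sirt7 scKO and 75.2 ± 9.04 CPM in Control (edgeR adjusted p = 0.389), and Thbs2, a matricellular thrombospondin, was 267 ± 24.8 CPM in Sirt7 scKO and 239.5 ± 22.6 CPM in Control (edgeR adjusted p = 0.4965). Of 7 adipogenic genes tested, 5 were positive (median 0.07), none passed in edgeR or limma voom, and 2 were higher and 1 lower at an unadjusted p under 0.05. Fabp4, a fatty acid carrier of fat and endothelial cells, was 206, 173.9, 191 and 162.5 CPM in Sirt7 scKO replicates 1 to 4, against 122.8, 156 and 136 CPM in Control replicates 1 to 3 (log2 fold change 0.41, edgeR adjusted p = 0.136). It passed in DESeq2. Of the fits that left 1 library out, edgeR passed Fabp4 only without Sirt7 scKO replicate 4. Cd36, a fatty acid receptor, was 529 ± 67.2 CPM in Sirt7 scKO and 411 ± 46.5 CPM in Control (log2 fold change 0.37, edgeR adjusted p = 0.194, no overlap). Cebpa, a transcription factor of fat cells singled out after its values were seen, pointed the other way, at 302 ± 46.5 CPM in Sirt7 scKO and 373 ± 43.99 CPM in Control (log2 fold change -0.31, edgeR adjusted p = 0.280). With 1 library left out, it too passed only without Sirt7 scKO replicate 4, as lower. The fat cell hormone gene Adipoq, singled out after its values were seen, was low in both groups, at 2.27 to 5.07 CPM in Sirt7 scKO and 0.539 to 3.30 CPM in Control. In the osteogenic list 2 of 6 genes tested passed, both higher, where 0.101% of all genes passed as higher. Alpl rose to 6.92 ± 1.12 CPM in Sirt7 scKO, against 1.34 ± 0.716 CPM in Control (log2 fold change 2.35, edgeR adjusted p = 0.0191). Ibsp rose to 9.09 ± 4.11 CPM in Sirt7 scKO, against 0.176 ± 0.174 CPM in Control (edgeR adjusted p = 0.00999). Over all 7 libraries Alpl had 210 counts and Ibsp 252. Both missed the threshold without Control replicate 1 and without Control replicate 2, where edgeR passed no gene of the whole table and 1399 had an unadjusted p under 0.05, and Alpl also missed it without Sirt7 scKO replicate 3. Runx2, a factor of the bone lineage also singled out afterwards, had a log2 fold change of 0.05 (edgeR adjusted p = 0.888).

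Markers of other cells were read beside the FAP markers. The 14 mature fibre genes were all negative (median -1.14), where 48.7% of all genes were negative. At an unadjusted p under 0.05, 10 were lower, against 6.94% of all genes. None passed the threshold in edgeR or limma voom, and 2, Myh2 and Actn3, passed in DESeq2. Without Sirt7 scKO replicate 1, the library with the most fibre RNA of its group, edgeR passed 12 of the 14 as lower, and none of the 10 FAP markers. That fit passed 184 of 16577 genes, 146 of them as lower. Their summed level was 4237, 815, 1595 and 1559 CPM in Sirt7 scKO replicates 1 to 4, against 6487, 4202 and 2488 CPM in Control replicates 1 to 3. These fold changes have the sign of Dpt and Cd248, and their part in the result was not tested. Of 9 tendon cell markers 5 were positive (median 0.06), none passed in edgeR, DESeq2 or limma voom, and 1, the tendon factor Scx, was lower at an unadjusted p under 0.05 (19.6 ± 2.71 CPM in Sirt7 scKO and 29.99 ± 8.2 CPM in Control, edgeR adjusted p = 0.180). The summed tendon level was 502, 379, 361 and 458 CPM in Sirt7 scKO replicates 1 to 4, against 623, 433 and 341 CPM in Control replicates 1 to 3. It was thus higher in Sirt7 scKO replicates 1 and 4 than in 2 and 3, as Pi16, Clec3b and Tnxb were. Pericyte and smooth muscle markers (5 of 8 positive, median 0.09, 1 higher at an unadjusted p under 0.05), Schwann cell markers (3 of 5 positive, median 0.11) and macrophage markers (5 of 10 positive, median 0.01, 1 lower at an unadjusted p under 0.05) had no gene past the threshold in edgeR, DESeq2 or limma voom. The same held for the 11 endothelial (median 0.05) and 3 T and NK cell markers tested (median -0.27), with none at an unadjusted p under 0.05. It also held for the 5 muscle stem cell markers tested (median -0.30), with 1 higher and 2 lower at that level. The medians of the stem cell and T and NK cell lists were thus below the FAP marker median of -0.26, each over few genes, and their part in the result was not tested. The 2 lower stem cell genes were Itga7, the integrin of muscle cells (186 ± 18.1 CPM in Sirt7 scKO and 239.7 ± 49.9 CPM in Control), and the receptor gene Fgfr4 (32.4 ± 6.30 CPM in Sirt7 scKO and 44.3 ± 8.42 CPM in Control). The 2 positive stem cell genes, singled out after their values were seen, were Myf5 and Pax7. Myf5, the higher 1 at that level, was 14.5 ± 2.93 CPM in Sirt7 scKO and 10.7 ± 0.389 CPM in Control. Pax7 had a log2 fold change of 0.13 (edgeR adjusted p = 0.8295).

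The genes named for the smallest p in the remaining lists had edgeR adjusted p values from 0.281 to 0.698. The log2 fold change was -0.28 for the tendon gene Thbs4, -0.21 and 0.16 for the endothelial genes Kdr and Pecam1, and 0.34 and 0.30 for the vessel wall genes Mcam and Myh11. It was -0.33 and -0.46 for the macrophage and monocyte genes C1qa and Ly6c2, and 0.87 and -0.32 for the lymphocyte genes Klrb1c and Cd4. For the myelin gene Mbp it was -0.10.

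**Figure D5:**
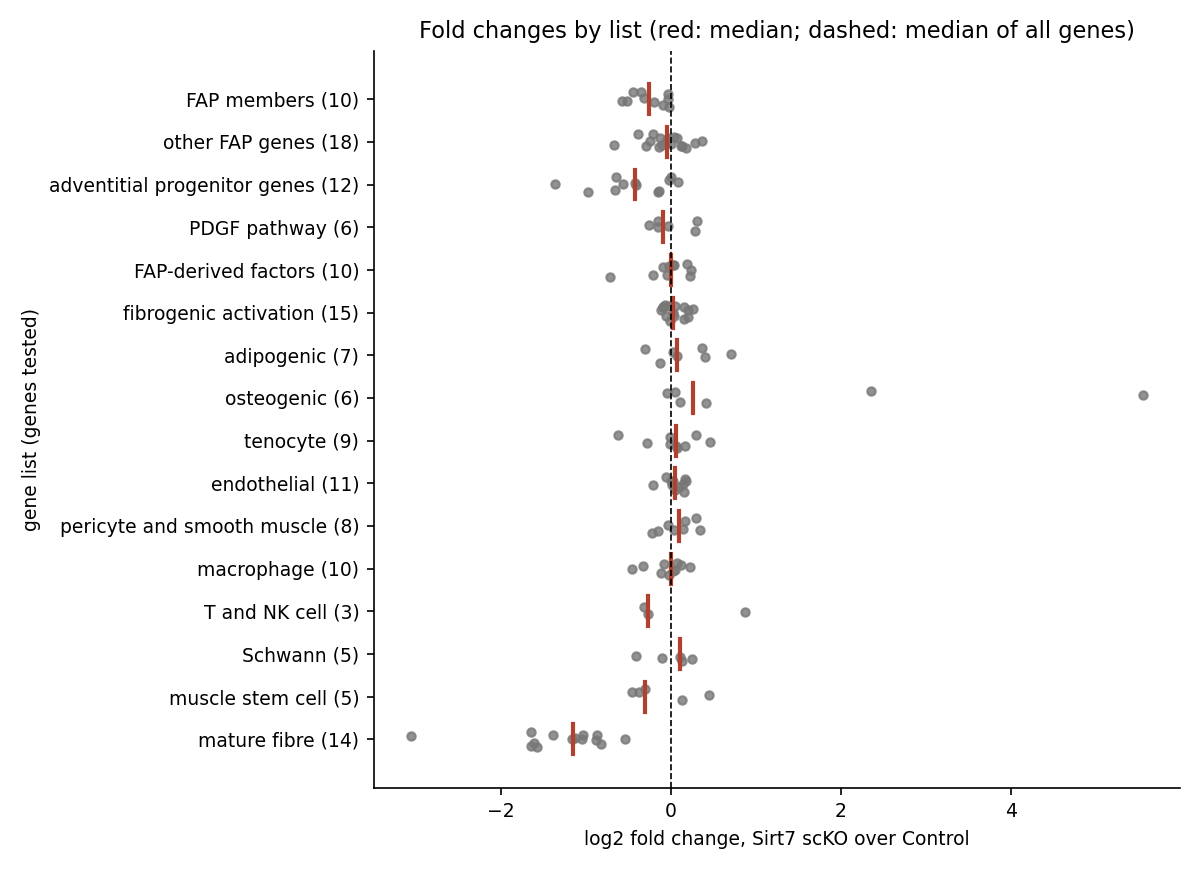
Log2 fold change, Sirt7 scKO over Control (horizontal axis), of each tested gene (grey points) in each gene list (rows, with the number tested), with the list's median in red and the median of all genes dashed. The adventitial progenitor, mature fibre, muscle stem cell and T and NK cell lists have medians below that of the FAP markers, and the further FAP genes sit near 0; the point beyond 5 is Ibsp, whose Control libraries had 2 counts or fewer.

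Among 10055 protein-coding genes with a mean of at least 10 CPM, those most like the mean profile of the 10 markers over the 7 libraries were Bin1, Slc35e4, Gsn, Zdhhc14 and Lynx1. Likeness was the root mean square difference of centred log2 CPM, and it ran from 0.0453 for Bin1 to 0.0541 for Lynx1. Gsn, gelsolin, an actin-severing protein abundant in fibroblasts, stood at 582, 467, 441 and 586 CPM in Sirt7 scKO replicates 1 to 4, against 639, 595.5 and 561 CPM in Control replicates 1 to 3. Bin1, a membrane-shaping protein of muscle T-tubules, was the closest (188 ± 17.7 CPM in Sirt7 scKO and 231 ± 21.7 CPM in Control). Among those most like Dpt alone were Rcc1l, Phlda3, Eda2r and Commd9, with the last at 0.0824. None of these 9 genes passed the test (edgeR adjusted p from 0.0832 to 0.554).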

How the data were processed

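The deposited values were raw counts per gene and library, as the authors' table gave them, whole numbers in all 7 columns. Per the submitters' processing notes, fastp, Bowtie2 and featureCounts and the build GRCm38 (mm10) were used. Versions, annotation release, strand setting and the rule for reads aligning to several places were not given in the sources used here. Per the labels, the NEBNext Ultra RNA kit and a NovaSeq instrument were used. That kit does not mark strand, and Bowtie2 does not align across introns. Gene names, positions and exon lengths came from GENCODE M21 (GRCm38), matched without version for 48144 of 48820 identifiers. The rest held 0.22% of counts.

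Genes were kept with filterByExpr (minimum count 10, minimum total 15). TMM factors set the scale, and edgeR 4.0.16 (R 4.3.3) tested Sirt7 scKO over Control by its quasi-likelihood method, with Benjamini-Hochberg adjustment over 16764 genes. SE is the size of the log2 fold change over the square root of F. The common dispersion was 0.0142. Levels are CPM with TMM factors. Levels per length divide them by the union of exons. Log2 CPM used a prior count of 2. Alternatives were other scalings and filters, DESeq2 1.42.0, limma 3.58.1 voom, robust dispersion, a replicate block, a looser threshold of 0.1 and each library left out in turn. Counting intervals are exact and cover counting error only, since reads carry no molecular identifiers. In simulated data with 16759 genes fitted, calls were made for 29 of 50 genes at a fold of 1.5, 46 of 50 at 2 and all 50 at 3 and at 4, with 10 false calls. Every simulated gene had the common dispersion, and changes were planted only in genes above a minimum mean count. These rates therefore need not hold for markers with a wide spread, such as Pi16 and Osr1 (coefficients of variation of 55.2% and 53.7% in Sirt7 scKO).

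The markers and the lists were chosen with earlier results of these data known. All 10 markers and Sirt7 were named. Of each other list the 2 genes with the smallest p were named, plus any past the threshold. Relatives were set beside their marker, and the 5 genes nearest in root mean square difference were named for the mean profile and for the marker with the smallest p. Of the genes this rule names, 2 are not reported here. Names outside this rule are marked in the text. Same-numbered libraries of the groups had correlations of their deviations of 0.123, -0.0742 and 0.0956, so the numbers were not taken to pair them. The labels call the libraries biological replicates without saying whether each is a separate mouse.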

Additional observations from a re-analysis of the deposited data

Results flagged for a closer look

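Among 63 named genes, 3 had 1 Sirt7 scKO library far from the other 3 by Dixon's criterion, where chance flags about 1 group in 20. Fap, a surface protease of activated fibroblasts and a relative of Dpp4, stood at 21.0 CPM in Sirt7 scKO replicate 4, where replicates 1 to 3 had 13.3 to 14.5 CPM. C1qa, a complement gene of macrophages, had 1074 CPM in the same library and 735 to 765 CPM in replicates 1 to 3. The fibre myosin gene Myh2 had 20.8 CPM in Sirt7 scKO replicate 1 and 5.89 to 7.95 CPM in replicates 2 to 4. None of the 10 FAP markers had such a library.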

How the results depend on the processing

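The number of FAP markers past the threshold was 0 in the test as reported and with RLE, upper-quartile or total-count scaling, a mean of at least 1 CPM, limma voom, robust dispersion or an adjusted p of 0.1. It was 1 with DESeq2, 3 with no filter (Ly6a, Dpt and Clec3b), and 0 to 2 when 1 library was left out (2 without Sirt7 scKO replicate 4). The number of all genes past it was 22 as reported, 35 with total-count scaling, 154 with DESeq2 (79 higher, 75 lower), 56 with robust dispersion, 80 at an adjusted p of 0.1 and 585 with no filter (209 higher, 376 lower). It ran from 0 to 330 when 1 library was left out, with 184 without Sirt7 scKO replicate 1 and 330 without Sirt7 scKO replicate 4. Of the other lists, edgeR with no filter passed Alpl, Ibsp, Prrx1, C3, Fabp4, Cd36, Scx, Ly6c1, Ly6c2, Itga7, Fgfr4, 3 adventitial genes and 13 fibre genes. With the replicate number as a block, 4 markers and 537 genes passed, among them Has1, Tnxb, Igfbp6 and Cebpa as lower, and the log2 fold change of Osr1 became 0.047. The numbers were not shown to pair the libraries. Sirt7 scKO replicates 1 and 3 correlated best with the Control library of the same number (0.123 and 0.0956). Sirt7 scKO replicate 2 correlated best with Control replicate 3 (0.156). Log2 fold changes turned sign when 1 library was left out for Pdgfra (-0.0924 to 0.0252), Dpp4 (-0.33 to 0.10), Pi16 (-0.462 to 0.041), Smoc2 (-0.111 to 0.0853) and Osr1 (-0.43 to 0.18). Those of Ly6a, Cd248, Dpt, Clec3b and Mfap5 stayed negative in all 16 alternatives. The number of markers without overlap stayed at 2 or 3, a check added after seeing the data. The gap in the summed share of counts ran from -0.0168 to -0.013 percentage points, against -0.0145 as reported. The cause of these shifts was not tested. Dpp4 and Osr1 had 27 to 96 counts a library. Counting alone gives a coefficient of variation of 14.6% for Dpp4 and 13.7% for Osr1 in Sirt7 scKO, where 30.5% and 53.7% were measured.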

Other observations

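A few genes below the filter on low counts were singled out after their values were seen. Il6, a cytokine that FAPs are known to make after injury, was not tested and had 11, 11, 12 and 13 counts in Sirt7 scKO replicates 1 to 4, against 2, 1 and 5 counts in Control replicates 1 to 3. The other factor below the filter, the BMP inhibitor gene Grem1, had 2 counts in Sirt7 scKO replicate 2 and 0 in every other library. Among bone genes below the filter, Bglap (osteocalcin) had 7, 5, 4 and 1 counts in Sirt7 scKO replicates 1 to 4, against 1, 1 and 0 counts in Control replicates 1 to 3. Sp7, a factor of bone-forming cells, had 9, 11, 16 and 2 counts in Sirt7 scKO, against 13, 6 and 1 counts in Control, with full overlap.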
